A study of Mus musculus with 2 samples.

Results

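Xcl1, Ccl1, Ccl3, Ccl4, Ccl5 and Ccl9 were chosen by name as 6 chemokine genes, out of 32285 genes counted in single cells from mouse tumours. Chemokines are small secreted proteins that bind receptors on other cells and direct where those cells move. Activated CD8 T cells are a well known source of several of them, and macrophages make others.

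The study compared 2 libraries of T cells from EMT6 tumours, a mouse mammary carcinoma line grown under the skin of BALB/c mice aged 4 to 6 weeks. Mice were assigned at a tumour volume of 80 to 150 mm3 to mSTAR1302, given into the peritoneum at 1 injection per week for 2 cycles, or to vehicle. mSTAR1302 is an antibody, known from outside the labels as directed to the T cell receptor chains that Trbv13-2 and Trbv13-3 encode and fused to interleukin-2. CD4+ and CD8+ cells were taken from digested tumours with magnetic beads and made into 10x Genomics 3′ libraries, 1 library in each group. The number of mice behind a library, the dose and the delay to harvest are not given in the sources used here, and the labels name no genetic alteration in either group.

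Each library gives a transcript count per cell from unique molecular identifiers (UMIs), each standing for 1 captured RNA molecule. The mSTAR1302 library held 9155 kept cells with a median of 6260 UMIs, and the vehicle library 7615 with a median of 8448. 17 barcodes were kept in both. T cells were gated by transcripts of Cd3d, Cd3e and Cd3g, then into a CD8 gate (6290 mSTAR1302 and 2460 vehicle cells), a CD4 gate without Foxp3 (791 and 622) and a CD4 gate with Foxp3, the transcription factor of regulatory T cells (146 and 1365). The 8 T cell markers summed to 6339 and 6433 counts per 1e6 UMIs (CPM) in the CD8 gate, 6671 and 5705 in the CD4 gate without Foxp3 and 5905 and 5718 in the CD4 gate with Foxp3. A Foxp3 UMI was also present in 3.07% of mSTAR1302 and 16.3% of vehicle CD8 gated cells. A cell without a Foxp3 UMI may still express Foxp3, so the CD4 gate without Foxp3 can hold regulatory T cells. How many it holds in each library was not measured. With 1 library per group no test between the treatments was possible, and intervals below are exact 95% intervals for counting error only.

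Ccl5, Ccl9, Ccl3 and Ccl4 lie within 138906 bases on chromosome 11 of GRCm38 (mm10). On the minus strand of that chromosome are Ccl5 (ENSMUSG00000035042, 83525778 to 83530518), Ccl9 (ENSMUSG00000019122, 83572919 to 83578636) and Ccl3 (ENSMUSG00000000982, 83647844 to 83649355), while Ccl4 (ENSMUSG00000018930, 83662584 to 83664683) is on the plus strand. Ccl1 (ENSMUSG00000020702, 82176657 to 82305690, minus strand) lies further off on chromosome 11, and Xcl1 (ENSMUSG00000026573, 164931644 to 164935527, minus strand) is on chromosome 1. RefSeq promoter sequences of build GRCm38.p6 were at hand for 4 of the 6 genes, and are shown because Xcl1, Ccl1, Ccl3 and Ccl9 differed in how they moved between the libraries and in which cells carried them. Each line gives the 250 bases before the RefSeq start, 5′ to 3′ on the gene's own minus strand, with every match to a searched motif in capitals. The spans above are those of GENCODE, which place the start of Ccl1 further upstream, so that its window lies inside that span.
Xcl1, chr1:164935523-164935772: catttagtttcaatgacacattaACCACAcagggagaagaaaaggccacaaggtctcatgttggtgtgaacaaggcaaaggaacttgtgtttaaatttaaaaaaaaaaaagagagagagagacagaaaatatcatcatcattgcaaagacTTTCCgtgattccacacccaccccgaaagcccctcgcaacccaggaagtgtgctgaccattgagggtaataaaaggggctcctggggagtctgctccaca
Ccl1, chr11:82179813-82180062: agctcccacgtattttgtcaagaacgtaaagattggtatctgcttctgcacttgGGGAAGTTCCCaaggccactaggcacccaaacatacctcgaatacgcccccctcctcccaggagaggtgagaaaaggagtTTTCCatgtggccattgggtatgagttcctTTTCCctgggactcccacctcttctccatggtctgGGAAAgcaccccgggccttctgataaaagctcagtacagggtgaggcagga
Ccl3, chr11:83649379-83649628: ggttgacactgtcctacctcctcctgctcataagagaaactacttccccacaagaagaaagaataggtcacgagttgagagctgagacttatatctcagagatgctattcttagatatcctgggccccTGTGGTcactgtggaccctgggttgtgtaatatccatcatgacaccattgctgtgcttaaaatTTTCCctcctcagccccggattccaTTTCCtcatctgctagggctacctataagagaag
Ccl9, chr11:83578637-83578886: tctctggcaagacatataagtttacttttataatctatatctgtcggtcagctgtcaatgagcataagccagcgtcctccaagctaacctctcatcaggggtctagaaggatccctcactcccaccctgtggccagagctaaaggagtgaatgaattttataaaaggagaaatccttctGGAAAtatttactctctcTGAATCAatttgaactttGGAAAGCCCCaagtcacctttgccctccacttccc
Ccl4 and Ccl5 are named only.

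5 motifs of activation-induced factors were searched on both strands, and matches may overlap. The NFAT core GGAAA, held by 55.6% of the 32851 promoter windows of this length, occurred in all 4: 1 time in Xcl1, 3 times in Ccl1, and 2 times each in Ccl3 and Ccl9. The Runx motif TGTGGT, held by 14.0% of windows, lay 227 bases before the start of Xcl1 and 122 bases before that of Ccl3. NF-kappaB, searched by its 10-base consensus and held by 7.25% of windows, had 2 overlapping matches in Ccl1, beginning 196 and 195 bases before the start, and 1 in Ccl9 that overlaps an NFAT core at 35 bases. The AP-1 motif TGANTCA, held by 6.75% of windows, was found only in the Ccl9 window, and the CRE core TGACG, held by 17.8%, in none of the 4. These matches describe the letters of the windows and carry no measurement of binding.

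CD8 gated cells of the mSTAR1302 library held less Xcl1, Ccl1 and Ccl9 and more Ccl5 than those of the vehicle library. Ccl3 and Ccl4 were higher by less than 2-fold. Thus 1 of 6 members was at least 2-fold higher, against 0.932% of the 5473 genes that reached 20 CPM in at least 1 library, and 3 of 6 were at least 2-fold lower, against 4.48% of those genes. The median log2 ratio, mSTAR1302 over vehicle on CPM plus 1, was −0.61 over the 6 members and −0.14 over all 5473 genes. The 6 genes were chosen with earlier results of these data known. Such shares, here and in the gates below, are therefore descriptions only.

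**Figure D1:**
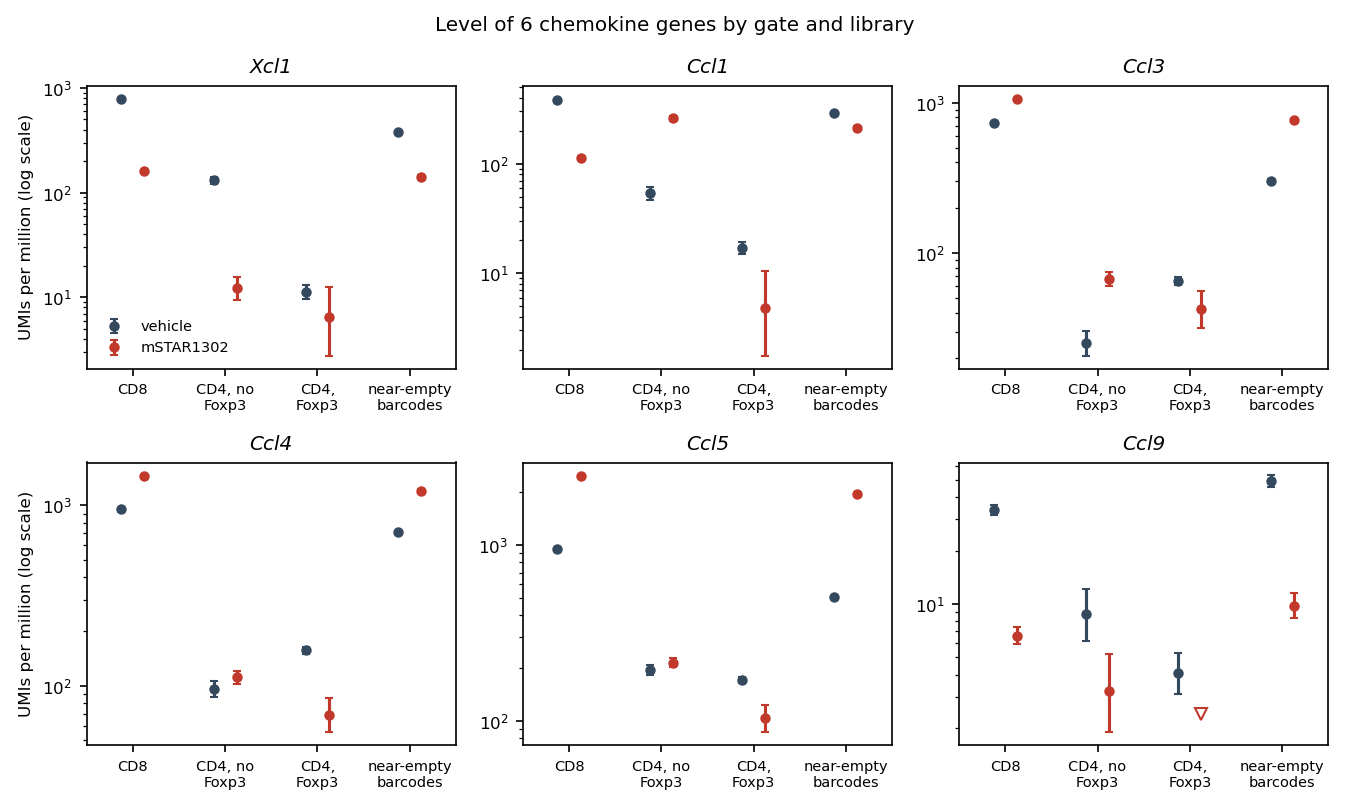
Level of each gene in CPM (log axis, scaled per panel) in 3 T cell gates and in near-empty barcodes, vehicle in dark blue and mSTAR1302 in red, with exact 95% Poisson intervals. The open triangle marks Ccl9 at 0 UMIs, drawn at the 3-count limit of 2.41 CPM, and CD8 levels of Ccl5 stand at 2487 against 949 CPM.

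Xcl1 encodes lymphotactin, the ligand of the receptor XCR1 on cross-presenting dendritic cells. It stood at 160 CPM in mSTAR1302 CD8 cells and 775 CPM in vehicle CD8 cells. The mSTAR1302 level was 4.83-fold lower (interval 4.71 to 4.96), a log2 ratio of −2.27. UMIs of Xcl1 were present in 12.6% and 47.4% of the cells, and in 8.27% and 33.5% once every cell was thinned to 3000 UMIs. A thinned cell with at least 5 Xcl1 UMIs was taken as a strong producer. These made up 1.80% of 5610 mSTAR1302 cells (1.47 to 2.18) and 10.3% of 2340 vehicle cells (9.14 to 11.6). Strong producers held a mean of 19.1 Xcl1 UMIs in mSTAR1302 and 18.8 in vehicle, so the share of producing cells differed and the count per producing cell was close.

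Ccl1, a ligand of CCR8 on regulatory and other T cells, showed 113 CPM in mSTAR1302 and 384 CPM in vehicle CD8 cells. This was a 3.39-fold lower level (3.28 to 3.5), with UMIs in 11.0% and 27.2% of cells. Strong producers were 1.48% and 4.62% of thinned cells, with a mean of 16.4 and 22.2 Ccl1 UMIs. Its vehicle UMIs were the more dispersed: the richest 1% of cells held 65.9% of Ccl1 UMIs in mSTAR1302 and 50.1% in vehicle, and for Xcl1 these shares were 67.2% and 30.1%.

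Ccl3 and Ccl4 encode the inflammatory chemokines MIP-1alpha and MIP-1beta, which draw T cells and myeloid cells. Ccl3 stood at 1052 CPM in mSTAR1302 and 731 CPM in vehicle CD8 cells, 1.44-fold higher (1.42 to 1.46). Ccl4 stood at 1458 and 959 CPM, 1.52-fold higher (1.5 to 1.54). Both differences shrank when cells rather than UMIs carried the weight: with each cell weighted equally the log2 ratio went from 0.52 to 0.02 for Ccl3 and from 0.60 to 0.20 for Ccl4. The intervals of the share of strong producers overlapped, at 6.56% (5.93 to 7.24) and 6.50% (5.53 to 7.57) for Ccl3 and at 11.0% (10.2 to 11.8) and 10.6% (9.34 to 11.9) for Ccl4. Their mean counts were 33.8 and 31.9 UMIs of Ccl3 and 31.5 and 28.1 UMIs of Ccl4. These cells held 91.4% and 92.2% of the Ccl3 UMIs left after thinning, and 87.2% and 88.6% of those of Ccl4.

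Ccl5, or RANTES, is a chemokine whose transcript is known in effector and memory CD8 T cells. It stood at 2487 CPM in mSTAR1302 and 949 CPM in vehicle CD8 cells, 2.62-fold higher (2.59 to 2.65). UMIs were present in 84.7% and 47.9% of cells, or 75.0% and 33.5% after thinning. Strong producers made up 47.3% of mSTAR1302 cells (46.0 to 48.7) and 16.5% of vehicle cells (15.1 to 18.1). Strong producers of vehicle held more on average, with a mean of 24.5 against 18.0 Ccl5 UMIs. Ccl5 was also the member least concentrated in few cells: the richest 1% of mSTAR1302 CD8 cells held 9.0% of its UMIs, against 22.8% in vehicle. In vehicle, Ccl4 was present in more CD8 cells than Ccl5, at 50.7%.

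Ccl9, a ligand of CCR1 made largely by myeloid cells, was the rarest of the 6 in the CD8 gate. It stood at 6.62 CPM in mSTAR1302 and 34.0 CPM in vehicle cells, 5.14-fold lower (4.53 to 5.84), from 323 and 984 UMIs. Only 1.05% and 4.02% of CD8 cells had a UMI, and 1 vehicle cell alone held 198 UMIs. Without cells above 20000 UMIs the log2 ratio moved from −2.20 to −1.14. In the gate of non-T cells with C1q transcripts, 14 mSTAR1302 and 47 vehicle macrophage-gated cells, Ccl9 stood far higher, at 437 and 386 CPM.

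**Figure D2:**
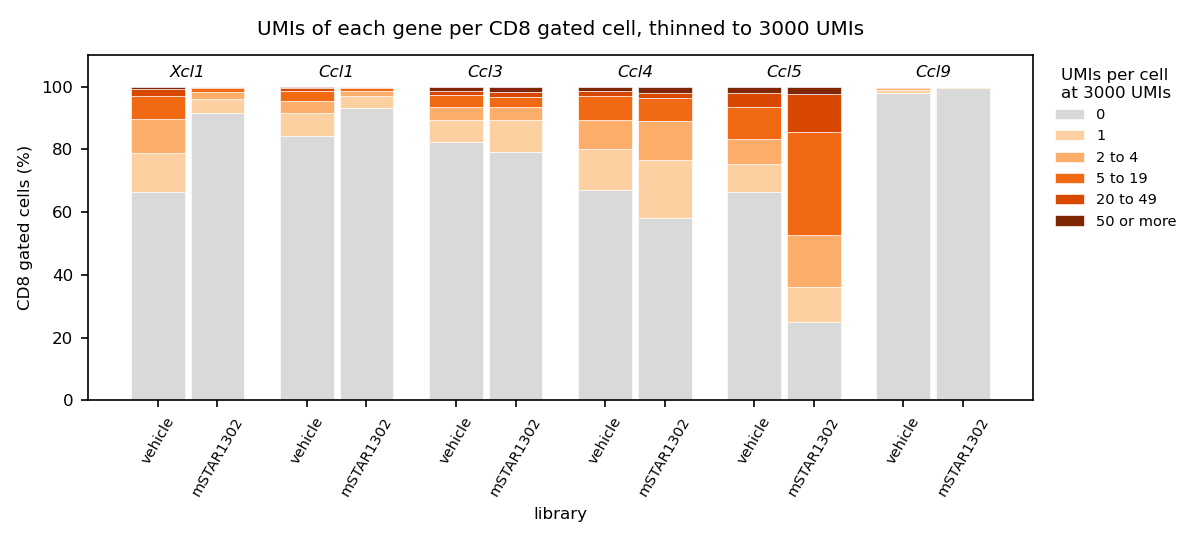
Share of CD8 gated cells (y axis, percent) in 6 classes of UMI count for each gene and library, after thinning each cell to 3000 UMIs. Cells with at least 5 Ccl5 UMIs, the 3 darkest classes, make up 47.3% in mSTAR1302 and 16.5% in vehicle, those of Xcl1 1.80% and 10.3%, and those of Ccl3 6.56% and 6.50%.

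Markers of some other cell types moved with the library in the CD8 gate. The 10 macrophage and monocyte markers summed to 83.7 CPM in mSTAR1302 and 929 CPM in vehicle CD8 cells, all 10 at least 2-fold lower, and the 8 dendritic cell markers to 54.6 and 285 CPM. The 6 NK markers summed to 58.4 and 173 CPM, 2 at least 2-fold lower and 1 higher, with Klra8 at 0 in both libraries. The summed markers of EMT6 tumour (8.26 and 51.4 CPM) and fibroblasts (26.9 and 102.7) were also lower in mSTAR1302. So were those of mast cells and basophils (22.8 and 69.0 CPM), plasma cells (1.39 and 9.33) and gamma delta T cells (7.95 and 12.5). Markers of B cells (18.1 and 14.9 CPM), endothelium (26.9 and 18.5) and neutrophils (1.84 and 1.76) were not lower in mSTAR1302. When cells with any UMI of 5 macrophage markers were left out, Xcl1, Ccl1 and Ccl9 were still at least 2-fold lower and Ccl5 at least 2-fold higher in the CD8 gate, with Ccl9 at a log2 ratio of −1.19 in place of −2.20. Macrophage-gated cells held little of the lymphoid members, with Xcl1 at 0 and 7.72 CPM and Ccl1 at 0 and 4.82 CPM, but carried Ccl3 at 471 and 382 CPM and Ccl4 at 891 and 802 CPM. An NK gate, without Cd3 transcripts and with Ncr1 or Klrb1c, held 0 mSTAR1302 and 9 vehicle cells. The vehicle cells carried Xcl1 at 1230 CPM, with UMIs in 7 of them. The part of NK cells in the CD8 gate was not tested.

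RNA outside cells was read from near-empty barcodes of 50 to 400 UMIs. Ccl5 stood there at 1965 CPM in mSTAR1302 and 505 CPM in vehicle, and a Ccl5 UMI was in 34.8% and 9.37% of these barcodes. Xcl1 stood at 140 and 377 CPM, Ccl1 at 214 and 287, Ccl3 at 762 and 302, Ccl4 at 1210 and 708, and Ccl9 at 9.78 and 49.4. Macrophage markers allow free RNA to be at most 17.5% of the UMIs of mSTAR1302 CD8 cells and 28.3% of those of vehicle CD8 cells. At those limits free RNA would give 344 CPM of the 2487 CPM of Ccl5 in mSTAR1302 and 107 CPM of the 775 CPM of Xcl1 in vehicle. Subtracting it left the log2 ratio of Xcl1 at −2.49 and no CD8 call of the 6 members changed.

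The CD8 gate held most UMIs of 5 members in both libraries. Its share of all UMIs in kept cells, for mSTAR1302 and vehicle, was 88.5% and 72.4% for Xcl1, 61.7% and 76.0% for Ccl1, 80.1% and 68.8% for Ccl3, 81.8% and 54.2% for Ccl4, and 90.3% and 67.5% for Ccl5. The gate itself held 68.7% of mSTAR1302 and 32.3% of vehicle kept cells, so these shares follow its size as well as its level. Ccl9 differed, with 46.1% and 28.2% of its UMIs in CD8 gated cells. In vehicle, 13.8% of Ccl4 UMIs lay in cells outside every gate. There, 89 cells with at least 20 Ccl4 UMIs, singled out after their values were seen, held 85.8% of those Ccl4 UMIs and carried Lyz2 at 6535 CPM and C1qa at 1435 CPM. The other cells outside every gate carried these macrophage transcripts at 2451 and 350 CPM.

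Every member but Ccl1 was lower in both CD4 gates than in the CD8 gate of the same library. In mSTAR1302, Ccl5 was 11.6-fold higher (10.9 to 12.3) in the CD8 gate than in the CD4 gate without Foxp3, Ccl3 15.7-fold (14.1 to 17.5), Ccl4 13.1-fold (12 to 14.2), Xcl1 13.1-fold (10.2 to 17.0) and Ccl9 2.03-fold (1.25 to 3.54). In vehicle the same ratios were 4.87, 29.0, 10.0, 5.94 and 3.87. Ccl1 ran the other way in mSTAR1302 alone, 2.30-fold higher (2.17 to 2.44) in the CD4 gate without Foxp3 than in the CD8 gate, whereas in vehicle it was 7.18-fold higher (6.30 to 8.21) in the CD8 gate. Between the 2 CD4 gates of mSTAR1302, levels were higher without Foxp3 for Ccl1 (54.2-fold, 24.8 to 148), Ccl3 (1.58-fold, 1.18 to 2.15), Ccl4 (1.62-fold, 1.29 to 2.05) and Ccl5 (2.08-fold, 1.73 to 2.51). The interval for Xcl1 spanned no difference, 1.91-fold (0.913 to 4.61), and Ccl9 had 17 UMIs without Foxp3 and 0 with it. In vehicle, Ccl3 and Ccl4 were higher with Foxp3 than without, 2.59-fold (2.12 to 3.19) and 1.64-fold (1.48 to 1.82). The other 4 were lower with Foxp3, by 1.13-fold for Ccl5 (1.05 to 1.23), 2.15-fold for Ccl9, 3.16-fold for Ccl1 and 11.6-fold for Xcl1.

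In the CD4 gate without Foxp3, 2 members were at least 2-fold higher in mSTAR1302, against 0.852% of 5518 genes, and 2 at least 2-fold lower, against 5% of them. Of the lower members, Xcl1 reached 20 CPM, as the 5518 genes had to, and Ccl9 did not. The median log2 ratio was −0.21 over all these genes and 0.18 over the 5 members that reached 20 CPM. Ccl1 stood at 261 CPM in mSTAR1302 and 53.5 CPM in vehicle, 4.88-fold higher (4.24 to 5.63). Its UMIs lay in 13.1% and 8.52% of cells, and in 9.57% and 4.22% after thinning. Strong producers numbered 20 of 690 thinned mSTAR1302 cells (2.90%, 1.78 to 4.44) and 2 of 545 vehicle cells (0.367%, 0.0445 to 1.32). The richest vehicle cell held 72 of 231 UMIs, and the log2 ratio rose from 2.26 to 3.18 when the 3 richest cells of each library were left out. The Ccl1 level of mSTAR1302 was 122% of that in near-empty barcodes, while Xcl1, Ccl3, Ccl4 and Ccl5 stood at 8.76% to 10.9% of theirs.

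Ccl3 stood at 67.0 and 25.2 CPM in the same gate, 2.66-fold higher in mSTAR1302 (2.14 to 3.32), with 113 of 350 mSTAR1302 UMIs in 1 cell. These levels were 8.79% and 8.35% of those in near-empty barcodes, where Ccl3 was 2.52-fold higher in mSTAR1302. Whether this difference in Ccl3 lies in the cells or in free RNA was not tested. Xcl1 stood at 12.3 and 131 CPM, 10.7-fold lower (8.22 to 14.0), but 342 of the 564 vehicle UMIs came from 1 cell and the log2 ratio went from −3.31 to −1.52 without the 3 richest cells. Ccl9, at 3.25 and 8.80 CPM from 17 and 38 UMIs, was the other member counted as lower, and it was at least 2-fold lower under 10 of 14 alternatives. Subtracting free RNA reversed both Xcl1 and Ccl9, but with a share of 2.03% in mSTAR1302 and of 44.9% in vehicle, which is too high for the vehicle gate. The vehicle share would give 136 CPM of Ccl3, where 25.2 CPM was counted, and 318 CPM of Ccl4, where 95.8 CPM was counted. Ccl4 (112 and 95.8 CPM) and Ccl5 (215 and 195 CPM) differed by log2 ratios of 0.22 and 0.14, and the sign of each changed under some of the alternatives tried. Macrophage markers summed to 87.3 CPM in mSTAR1302 and 1360 CPM in vehicle here, all 10 lower, and NK markers to 12.6 and 246 CPM. Without cells that held a UMI of 5 macrophage markers, the log2 ratio was 3.42 for Ccl1, 1.66 for Ccl3, −1.11 for Xcl1 and −1.30 for Ccl9. The part of NK cells was not tested.

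**Figure D3:**
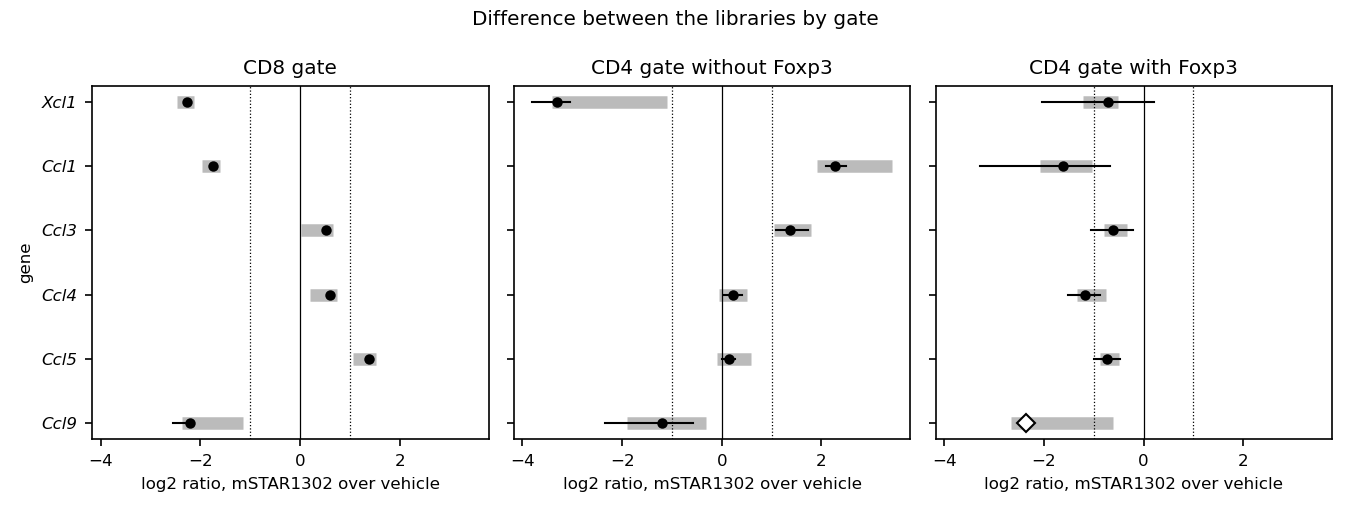
Log2 ratio of mSTAR1302 over vehicle (x axis, on CPM plus 1) for each gene in 3 gates: points with exact 95% counting intervals, grey bars for the range over the alternatives tried other than subtraction of free RNA, dotted lines at 2-fold, and an open diamond where mSTAR1302 had 0 UMIs. Xcl1 and Ccl9 lie left of 0 in every gate, while Ccl1 lies at −1.75 in the CD8 gate and 2.26 in the CD4 gate without Foxp3.

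In the CD4 gate with Foxp3 all 6 values were lower in mSTAR1302. Of the 3 members that reached 20 CPM here (Ccl3, Ccl4 and Ccl5), 0 were higher by 2-fold or more, against 0.488% of the 5732 genes that did so, and 1, Ccl4, was lower by that much, against 1.74% of them. The median log2 ratio over these genes was −0.13. Ccl1 and Ccl9, which did not reach 20 CPM, bring the number lower to 3 of 6, or to 2 when the 0 of Ccl9 is set to 3 counts. Ccl4 stood at 69.0 CPM in mSTAR1302 and 157 CPM in vehicle, 2.28-fold lower (1.84 to 2.86), and was past 2-fold under 14 of 16 alternatives. Subtracting free RNA at the limit that macrophage markers allow turned its log2 ratio from −1.18 to 0.022. That limit was 0% in mSTAR1302 and 13.9% in vehicle, so nothing was subtracted in mSTAR1302. The vehicle limit would give 467% of the Xcl1 level counted in vehicle, so it is too high for this gate. Ccl1 stood at 4.81 and 16.9 CPM, from 6 and 244 UMIs, and 111 of the vehicle UMIs came from 1 cell. Ccl9 had 0 UMIs against 59, at least 1.70-fold lower when 3 counts are allowed. The remaining values were 104 and 172 CPM for Ccl5, 42.5 and 65.4 for Ccl3, and 6.42 and 11.2 for Xcl1, whose interval (0.867-fold to 4.12-fold lower) spans no difference. The smaller of the 2 gates limits these values, since it holds 146 cells.

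Levels in cells gated with Foxp3 were set beside free RNA. The 5 detected members in mSTAR1302 stood at 2.25% to 5.70% of their levels in near-empty barcodes. In vehicle, Xcl1 stood at 2.98% and Ccl1 at 5.89%, but Ccl3 at 21.6%, Ccl4 at 22.2% and Ccl5 at 34.0% of theirs. Of the 157 CPM of Ccl4 counted in vehicle, free RNA would give 21.1 CPM at the percentage of Xcl1 and up to 98.6 CPM (62.8%) at the limit that macrophage markers allow. Of the 172 CPM of Ccl5 it would give 15 CPM and up to 70.3 CPM (40.9%). At the marker limit free RNA would also give 52.5 CPM of Xcl1, where only 11.2 CPM was counted. The marker limit is thus too high for this gate, and so are the upper values for Ccl4 and Ccl5. Strong producers were 2.79% of 1289 thinned vehicle cells for Ccl4 and 3.41% for Ccl5. In mSTAR1302 they were 0 of 134 for Ccl4, with an interval up to 2.72%, and 2 of 134 for Ccl5. Macrophage markers summed to 12.8 and 354 CPM in this gate and dendritic cell markers to 55.4 and 373 CPM. Without cells with macrophage marker UMIs the log2 ratio of Ccl4 was −1.08 in place of −1.18, and the part of dendritic cells was not tested.

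Some pairs of the 6 chemokines were found in the same CD8 cells. In thinned cells, Ccl3 and Ccl4 had a per-cell Pearson correlation of 0.69 in mSTAR1302 (5610 cells) and 0.72 in vehicle (2340 cells). Of the cells with at least 5 Ccl3 UMIs, 77.2% and 78.9% also held at least 5 Ccl4 UMIs, against 6.33% and 5.80% of the cells below 5 Ccl3 UMIs. Xcl1 went with Ccl1 at 0.40 and 0.50 and with Ccl3 at 0.36 and 0.48. Ccl5 stood apart, at −0.10 and 0.18 with Ccl3, −0.01 and 0.31 with Ccl4, and −0.10 and −0.05 with Xcl1. These correlations are across cells of 1 library each, which share depth and free RNA, and are descriptions only.

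**Figure D4:**
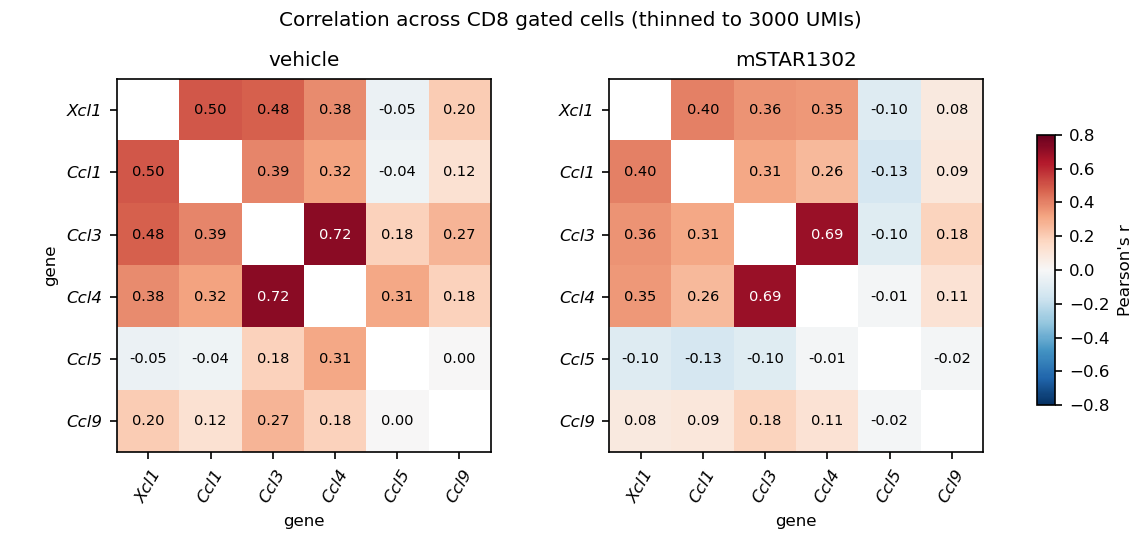
Pearson correlation (colour and number) between each pair of the 6 genes across CD8 gated cells thinned to 3000 UMIs, 2340 vehicle cells on the left and 5610 mSTAR1302 cells on the right. Ccl3 with Ccl4 is the strongest pair in both, at 0.72 and 0.69, and the Ccl5 row and column stay between −0.13 and 0.31.

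Cells strong in many of the 6 were rare. 3 or more members reached 5 UMIs in 2.75% of mSTAR1302 and 4.74% of vehicle thinned CD8 cells, and none did in 44.6% and 68.8%. Exactly 1 member did so in 46.0% and 21.3%.

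Among 7470 genes found in at least 2% of thinned CD8 cells of both libraries, those most correlated with each member in the library where the value was lower were named. For Ccl3 and Ccl4, besides members, they were Ifng, the gene of interferon gamma (0.58 and 0.57 with Ccl3, 0.54 and 0.55 with Ccl4), and Havcr2, the gene of the inhibitory receptor TIM-3 (0.38 and 0.40 with Ccl3). For Xcl1 they were Ifng (0.31 and 0.41) and Cd160 (0.25 and 0.27), a surface receptor of cytotoxic lymphocytes. Csf2, the gene of the growth factor GM-CSF, joined the members and Ifng for Ccl1 (0.32 and 0.32). The list for Ccl5 held no other member and consisted of Gzma, the gene of granzyme A (0.29 and 0.38), Btg1, Ly6c2, Ly6c1 and Smad7. For Ccl9 the nearest was Lyz2, the lysozyme gene of myeloid cells (0.20 and 0.30), with Ccl3, Fcer1g, Zeb2 and Ccl4 after it.

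CD8 cells were then divided by a UMI of another gene after thinning. Cells with Ifng held Ccl3 at 1309 CPM in mSTAR1302 and 1370 CPM in vehicle, and cells without it at 83.9 and 85.9 CPM. Ccl4 stood at 2044 and 1959 CPM with Ifng. Without Ifng it stood at 282 and 220 CPM, 1.28-fold higher in mSTAR1302. Thinning alone had already brought the log2 ratio of the whole gate to 0.11 for Ccl3 and 0.25 for Ccl4. Cells with Ifng were 59.1% and 51.6% of the gate. Xcl1 stood at 227 and 1254 CPM with Ifng and at 33.3 and 290 CPM without it. Xcl1 was lower in mSTAR1302 on both sides of all 10 divisions made (Pdcd1, Tcf7, Gzma, Gzmb, Havcr2, Mki67, Ifng, Nr4a1, Itgae and Klrg1).

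Cells with Pdcd1, the gene of the inhibitory receptor PD-1, held Ccl3 at 1904 and 992 CPM, 1.92-fold higher in mSTAR1302 (1.83 to 2.01), and Ccl4 at 2807 and 1356 CPM, 2.07-fold higher (1.99 to 2.15). Cells without Pdcd1 were close, at 568 and 586 CPM of Ccl3 and 999 and 959 CPM of Ccl4. With Havcr2, Ccl3 was highest of all divisions in mSTAR1302, at 3066 CPM against 3664 CPM in vehicle, and Xcl1 stood at 424 and 2497 CPM.

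Granzyme A divided the gate most unequally, with a Gzma UMI in 55% of mSTAR1302 and 4.87% of vehicle cells. The 3084 mSTAR1302 cells with Gzma held less of every member than the 114 vehicle cells with it, for example 433 against 3181 CPM of Ccl3, 82.1 against 2190 CPM of Xcl1 and 3896 against 8734 CPM of Ccl5. In cells without Gzma the order for Ccl3 turned, at 1265 in mSTAR1302 and 623 CPM in vehicle, and likewise for Ccl5, at 1993 and 1086 CPM. Tcf7, a transcription factor gene of naive and stem-like T cells, marked cells with Ccl5 at 4230 and 2442 CPM and little Ccl3, at 163 and 71.5 CPM.

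The receptor segment could be read in a minority of CD8 cells, since 3′ libraries rarely reach it. In mSTAR1302, 682 cells showed UMIs of Trbv13-2 or Trbv13-3 and of no other Trbv, and 802 cells showed another Trbv only. Cells with the Trbv13-2 or Trbv13-3 segment held less of 5 members and more Ccl5. Ccl3 stood at 476 CPM in them and 1840 CPM with other segments, 3.86-fold lower (3.71 to 4.02), with UMIs in 25.8% and 41.5% of cells. Ccl4 stood at 542 and 1701 CPM, 3.14-fold lower (3.02 to 3.26), Ccl1 at 61.4 and 224 CPM, and Xcl1 at 104 and 225 CPM. Ccl5 stood at 2621 and 1873 CPM, 1.40-fold higher (1.37 to 1.43), with UMIs in 93.7% and 76.8% of cells. Without the 3 richest cells on each side, a setting chosen after seeing the data, the same 5 stayed lower and Ccl3 was 7.34-fold lower.

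In vehicle, 73 cells had the Trbv13-2 or Trbv13-3 segment and 503 another. There Ccl3 stood at 1483 and 613 CPM, Ccl4 at 1446 and 738, Xcl1 at 1057 and 680, Ccl1 at 281 and 309, Ccl5 at 887 and 829 and Ccl9 at 24.8 and 10.3. The shares of cells with a UMI overlapped, for example 34.2% (23.5 to 46.3) and 29.6% (25.7 to 33.8) for Ccl3. Without the 3 richest cells on each side Ccl3 stood at 525 and 313 CPM, 1.68-fold higher, Ccl4 at 534 and 484, Xcl1 at 505 and 571, Ccl1 at 69.1 and 189, Ccl5 at 594 and 713 and Ccl9 at 2.07 and 2.04. The order turned for Xcl1 and Ccl5 and was kept by the other 4. However, 3 cells are a larger part of 73 than of 503, so this setting weighs more on the Trbv13-2 or Trbv13-3 side. The turned orders therefore cannot be read as a result.

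**Figure D5:**
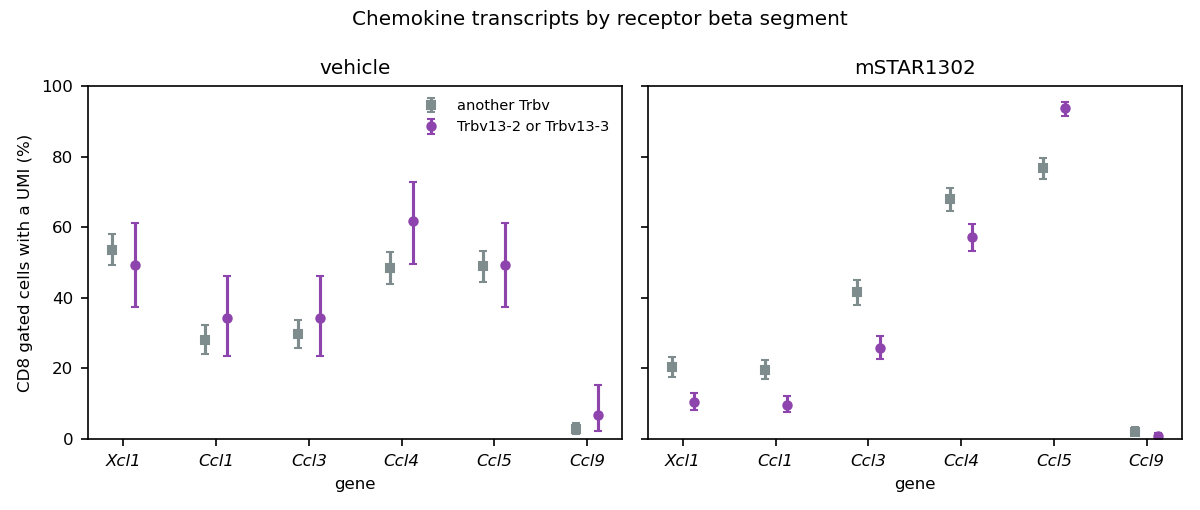
Share of CD8 gated cells with a UMI of each gene (y axis, percent, exact 95% binomial intervals for counting error) by receptor beta segment, vehicle on the left (73 cells with Trbv13-2 or Trbv13-3, 503 with another) and mSTAR1302 on the right (682 and 802). In mSTAR1302, Ccl5 is in 93.7% of cells with the Trbv13-2 or Trbv13-3 segment and 76.8% of others, and the other 5 genes are in fewer of them, while the vehicle intervals overlap for all 6 genes.

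Among 11 chemokine receptors of T cells that bind other ligands, 6 reached 20 CPM in CD8 cells: Ccr2, which draws cells to inflamed tissue, was higher (151 and 70.2 CPM), and Ccr7, the lymph node homing receptor (97.6 and 413 CPM), and Cx3cr1 (12.1 and 45.3 CPM) were at least 2-fold lower. CD4 cells without Foxp3 held less Ccr1, a receptor of Ccl3, Ccl5 and Ccl9, at 7.27 and 20.8 CPM. Cxcr6 was the 1 of 6 other receptors that was at least 2-fold higher (456 and 156 CPM), with Ccr7, Ccr9 and Cxcr4 lower. Of all genes tested, 0.932% were at least 2-fold higher and 4.48% lower in CD8 cells, and 0.852% and 5% in CD4 cells without Foxp3. Among CD4 cells with Foxp3, Ccr1 was at least 2-fold lower, at 14.4 and 31.5 CPM, against 1.74% of all 5732 genes. There Ccr8, the receptor of Ccl1, stood at 24.1 and 39.0 CPM. Macrophage and dendritic cell markers were also lower in mSTAR1302 in each gate, the latter at 53.6 and 456 CPM without Foxp3. The part of such cells in these receptor differences was not tested.

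Of 28 other chemokine ligands, 26 were in the files and 8 reached 20 CPM in CD8 cells. 7 of these were at least 2-fold lower in mSTAR1302 (Ccl2, Ccl6, Ccl7, Ccl8, Cxcl1, Cxcl2 and Pf4, for example Ccl8 at 1.82 and 82.1 CPM), and Cxcl10 stood at 43.3 and 40.8 CPM. Of all 5473 genes 4.48% were at least 2-fold lower, and the median log2 ratio of these 8 ligands was −3.78. Several of these are known as myeloid products, and they moved with the macrophage markers given above. In the CD4 gates without and with Foxp3, 6 of 6 and 2 of 3 were at least 2-fold lower, against 5% and 1.74% of all genes tested there.

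Of 33 listed genes of T cell activation, 30 reached 20 CPM in CD8 cells. 0 were at least 2-fold higher, against 0.932% of all 5473 genes, and 2 lower, Nr4a2 and Irf8, against 4.48%. The median log2 ratio of the 30 was −0.41. Ifng stood at 1422 and 1009 CPM. For CD4 cells without Foxp3, 3 of 28 were at least 2-fold higher, the cytokine genes Il2 (42.3 and 5.09 CPM), Csf2 (76.6 and 20.8 CPM) and Ifng (348 and 124 CPM), beside Ccl1 and Ccl3, and Jun and Irf8 were lower. With Foxp3, Ifng was higher (82.6 and 27.0 CPM) and Nr4a1 lower among 26. Of all genes tested, 0.852% were at least 2-fold higher and 5% lower without Foxp3, and 0.488% and 1.74% with it. Macrophage and dendritic cell markers were lower in mSTAR1302 in each gate, and the part of such cells in the lower values, such as Irf8, was not tested.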

How the data were processed

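The authors deposited raw UMI counts, as whole numbers for each gene in each barcode, made with Cell Ranger: version 4 per the file headers and 6.0.1 per the submitters' processing notes. The same notes list the genome build mm10 with FastQC, Seurat and MultiQC 1.9, and no annotation release. The matrices list empty barcodes too and hold 96486469 UMIs for mSTAR1302 and 110026997 for vehicle.

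Barcodes with at least 1000 UMIs, at least 500 genes and at most 10% mitochondrial UMIs were kept. The mitochondrial limit removed 1872 and 1704 barcodes. T cells had at least 2 UMIs of Cd3d, Cd3e and Cd3g. The CD8 gate required a Cd8a or Cd8b1 UMI and no Cd4, and the CD4 gates the reverse. Doublets were not called and remain. UMIs were summed per gate, divided by the gate's total to give CPM, and compared as log2 ratios with a pseudocount of 1 CPM, with at least 2-fold counted as different. These are molecule counts from the 3′ end and are not scaled by gene length. Intervals are exact at 95% (Poisson for CPM, conditional binomial for ratios, Clopper-Pearson for shares). They cover counting error only, since each group has 1 library and cells are not replicates. Thinning drew 3000 UMIs per cell with seed 1 and left out shallower cells, 680 and 120 in the CD8 gate. The ratio calculation was tested on simulated data. These were independent Poisson counts for genes of at least 20 CPM, without the clumping of UMIs in few cells seen here. They do not test how the intervals behave under such clumping.

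The genes, lists and divisions were chosen with earlier results of these data known. The genes named are the 6 members, list genes at least 2-fold different with at least 20 CPM in either library, and the 5 best correlated genes per member. 1 listed receptor is not reported here. Values of Ccr8, Cxcl10 and Ifng where they differed by less were added after they were seen. Near-identical genes can share reads, which was not resolved here. Alternatives covered scaling, thinning, cell filters, gates, free RNA, pseudocounts and low counts. 2 more, leaving out the 3 richest cells and setting a count of 0 to 3, were chosen after seeing the data. The tools were pandas 2.3.3, SciPy 1.17.1 and NumPy 2.4.6 in Python 3.11.15, with matplotlib 3.10.9 for figures.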

Additional observations from a re-analysis of the deposited data

Results flagged for a closer look

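The difference between the libraries was not the same in all gates, and none of the gaps below was tested, since each group has 1 library. The log2 ratio of Ccl1 in the CD4 gate without Foxp3 exceeded that in the CD8 gate by 4.01, with opposite signs. In the CD4 gate with Foxp3 the log2 ratio was below that of the CD8 gate by a difference of −1.13 for Ccl3, −1.78 for Ccl4 and −2.12 for Ccl5, also with opposite signs.

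Within the CD8 gate, the log2 ratio of cells with Trbv13-2 or Trbv13-3 over cells with another segment differed in sign between the libraries. mSTAR1302 minus vehicle gave −1.74 for Xcl1, −3.23 for Ccl3, −2.62 for Ccl4 and −3.25 for Ccl9. The vehicle side rests on 73 cells. Without the 3 richest cells on each side, a setting chosen after seeing the data, the vehicle ratio was 0.884 for Xcl1, so that its sign no longer differed. It was 1.10 for Ccl4, 1.02 for Ccl9 and 1.68 for Ccl3. Since 3 cells are a larger part of these 73 than of the 503 with another segment, this setting lowers the 2 sides unequally and does not decide the sign.

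T cells outside the 3 gates also differed. In T cells with UMIs of both Cd4 and Cd8 genes, 843 in mSTAR1302 and 1302 in vehicle, the log2 ratio was 2.10 for Ccl3, 1.38 for Ccl4 and 1.33 for Ccl5, against −1.95 for Xcl1 and −1.56 for Ccl9. Of these cells 20.0% and 65.7% had a Foxp3 UMI. In T cells with UMIs of neither, 648 and 980, it was 2.15 for Ccl1, 1.73 for Ccl5 and −1.52 for Ccl9.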

How the results depend on the processing

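In the CD8 gate the counts of members at least 2-fold higher (1) and lower (3) were the same under all 16 alternatives. The log2 ratios ran from −2.49 to −2.12 for Xcl1, −2.19 to −1.61 for Ccl1, 0.02 to 0.67 for Ccl3, 0.20 to 0.75 for Ccl4, 1.06 to 1.53 for Ccl5 and −2.36 to −1.14 for Ccl9. Of the 18 values of a member in a gate, 9 kept their sign under every alternative. Subtracting free RNA changed the CD4 counts most. In the CD4 gate without Foxp3 it moved the members at least 2-fold higher from 2 to 6 and the lower from 2 to 0, and in the CD4 gate with Foxp3 the higher from 0 to 2 and the lower from 3 to 0. It reversed Xcl1 (3.41) and Ccl9 (2.04) without Foxp3, and Ccl1 (2.54), Ccl4 (0.022), Xcl1 (2.89) and Ccl3 (0.63) with Foxp3. By construction it reads the free RNA share from macrophage markers. This share was 44.9% in vehicle CD4 cells without Foxp3 and 13.9% with it, but 2.03% and 0% in mSTAR1302. The subtraction thus fell almost only on the vehicle side, and sets vehicle values to 0 where those cells carry such markers. At 44.9%, free RNA composed like near-empty barcodes would give 116% (Ccl5) to 537% (Ccl3) of the member levels counted in vehicle without Foxp3. With Foxp3 it would give 467% of the vehicle Xcl1 level. Both vehicle shares are thus too high, and these reversals do not measure the effect of free RNA. Without Foxp3, only 1 member, Xcl1, was at least 2-fold lower after thinning, with a mitochondrial limit of 5%, with a pseudocount of 5 CPM, or with members of at least 20 CPM only. With Foxp3 the lower count was 1 with a mitochondrial limit of 20% (Ccl1) and with members of at least 20 CPM only (Ccl4). Apart from the low-count setting, which removes members by construction, the cause of these changes was not tested. No paired analysis was possible because each group has 1 library and the labels carry no replicate numbers. The CD4 gate with Foxp3 in mSTAR1302, at 146 cells, and members under 20 CPM limit the depth, and no alternative replaces a second library.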
